A study of Bactrocera dorsalis with 3 samples.

Results

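The 201 genes described here had transcripts at FPKM 10 or more in newly laid eggs of the oriental fruit fly, Bactrocera dorsalis, that were still near that level at 2-4 hours and stood at no more than 0.25 of it at 5-8 hours. FPKM is a level per length: fragments per kilobase of transcript, relative to all fragments of the library. They were chosen among 13489 gene models by their FPKM in all 3 libraries of the study. Genes with a number, on nuclear scaffolds, with a span under 100000 bases and an FPKM of 10 or more at 0-1 hours numbered 5635, and are called the maternally present genes below. Among these the 201 had a ratio of FPKM + 1 of at least 0.8 between 2-4 and 0-1 hours, and of at most 0.25 between 5-8 and 0-1 hours. These ratios are therefore a description of the choice and not a result, and no test was made of them. They are called late-cleared genes in what follows.

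Before its own genome is transcribed, an insect embryo lives on messenger RNA that the mother loaded into the egg. In Drosophila melanogaster these maternal transcripts are removed by at least a pair of overlapping routes. An early route is set off by egg activation and uses maternal RNA-binding proteins such as Smaug, which bring the CCR4-NOT deadenylase to their targets. A later route needs products of the embryo's own genes, among them microRNAs, and removes transcripts that stayed stable through the first nuclear divisions.

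The study sequenced RNA selected on poly-T beads from whole embryos, with 1 library for newly laid eggs (0-1 hours post-oviposition, hpo), 1 for 2-4 hpo and 1 for 5-8 hpo. No strain, treatment, sex or number of embryos is given in the labels used here. The collection windows were 1, 2 and 3 hours wide, so each library mixes embryos over its window. Reads assigned to genes numbered 68140879, 65069185 and 74817640 at the 3 ages. A single library per age leaves every difference without replicates, so no p-value was computed. Intervals beside folds are 95% exact intervals from read counts and cover counting error only. Intervals beside shares of genes are 95% exact binomial intervals over numbers of genes, which treat genes as independent draws. Poly-T selection recovers tailed RNA, and whole embryos were used, so loss of a transcript, shortening of its tail and a change in the rest of the RNA pool cannot be told apart. No library of unfertilised eggs was analysed here, so "maternal" rests on presence at 0-1 hpo alone.

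The late-cleared genes were abundant transcripts that together lost most of their share of the pool at 5-8 hpo. At 0-1 hpo the median FPKM was 68.5, with 66.3 at 2-4 hpo and 10.2 at 5-8 hpo. They took 4.94%, 5.16% and 0.770% of all assigned reads at the 3 ages. Single genes ranged from FPKM 10.2 to 1021 at 0-1 hpo, from 8.70 to 1178 at 2-4 hpo and from 0.628 to 170 at 5-8 hpo. None reached 0 at the last age: the fewest reads of any of these genes in any library was 25, and 102 of the 201 still stood at FPKM 10 or more at 5-8 hpo. Another 94 were between FPKM 1 and 10, and 5 were under 1. The lower quartile of all maternally present genes at 5-8 hpo was FPKM 13.9, so a larger share of them than of the 201 stood at FPKM 10 or more.

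**Figure D1:**
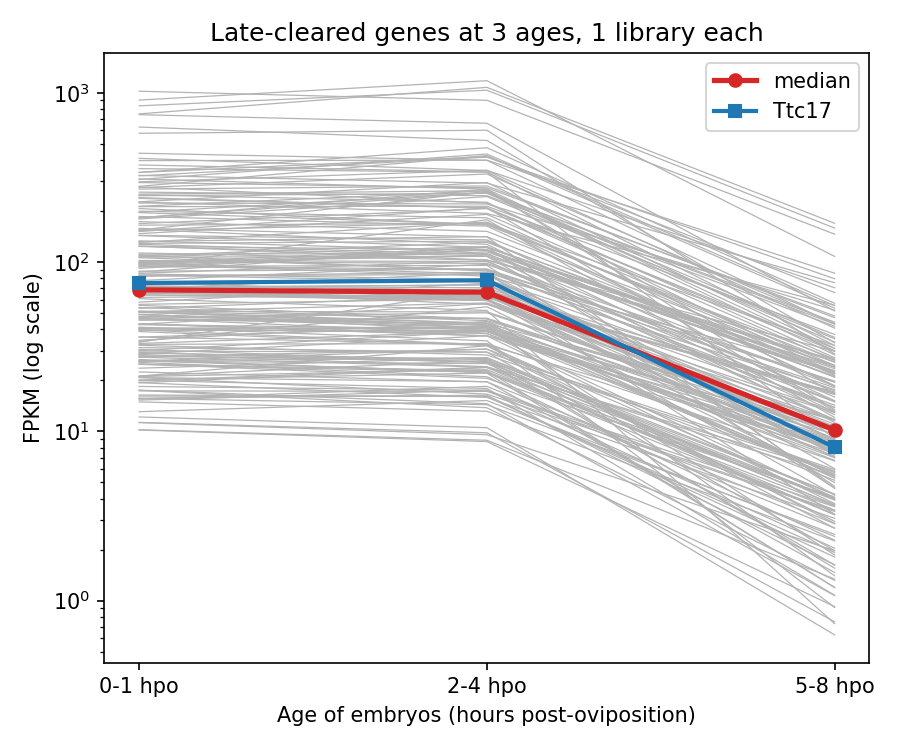
FPKM (vertical axis, log scale) of the 201 late-cleared genes at the 3 ages (horizontal axis), with 1 grey line per gene, the median in red and Ttc17 in blue. The median was 68.5, 66.3 and 10.2 at the 3 ages, and all lines turn down after 2-4 hpo because the genes were chosen so.

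A fall to 0.25 or less at 5-8 hpo was uncommon among transcripts that had been kept, while smaller late falls were common. Of the 5635 maternally present genes, 2955 (52.4%) had a ratio of at least 0.8 at 2-4 over 0-1 hpo and 736 (13.1%) had a ratio of at most 0.25 at 5-8 over 0-1 hpo. Both held for the 201, or 3.57%. Another 1189 of the 2955 kept genes stood above 0.25 and below 0.8 at 5-8 hpo, and 1565 stayed at 0.8 or more. Of the 2955 kept genes 6.80% were low at 5-8 hpo, against 535 (19.96%) of the 2680 genes that had not been kept. Both ratios share the 0-1 hpo library, so these shares are not independent of each other. The genes not kept include those already low at 2-4 hpo, so their higher share is partly built into the split. These shares are a description only. Of the 736 genes low at 5-8 hpo, 176 had already been at or below 0.25 at 2-4 hpo, and 359 lay between the limits.

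**Figure D2:**
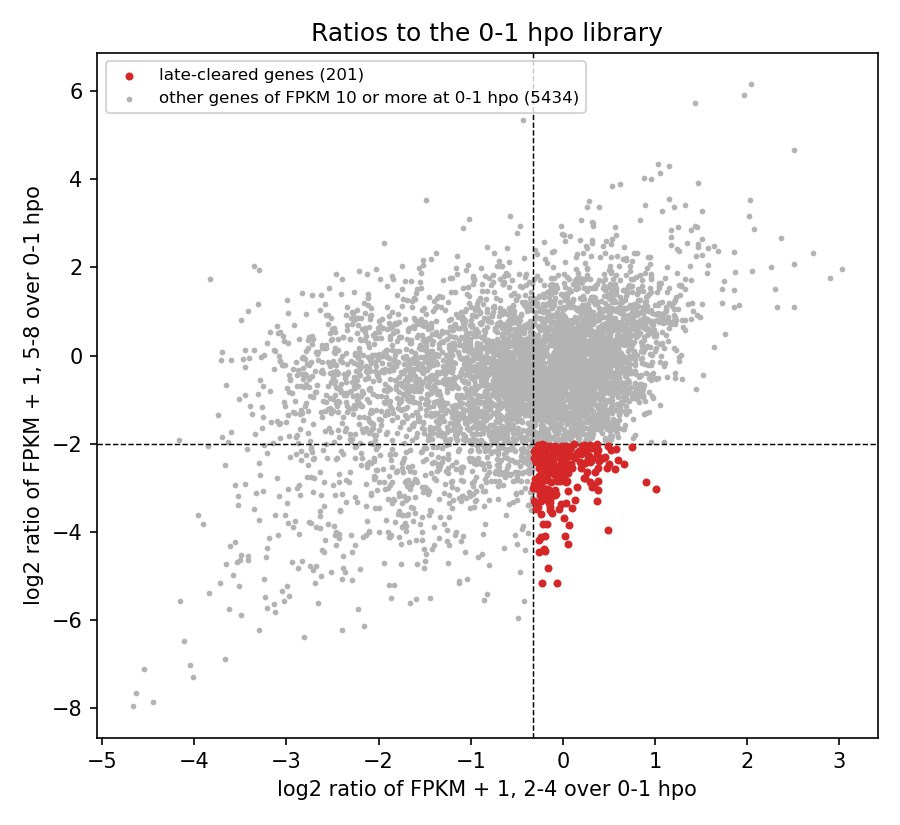
Log2 ratio of FPKM + 1 at 2-4 over 0-1 hpo (horizontal axis) and at 5-8 over 0-1 hpo (vertical axis) for the 5635 maternally present genes, with the 201 late-cleared genes in red and the limits as dashed lines. The late-cleared genes fill the lower right corner and border on other genes without a gap at either limit.

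No gap separated the late-cleared genes from their neighbours in value. Just inside the limit at 2-4 hpo, LOC105229237 had a ratio of 0.801, LOC105224418 of 0.802 and LOC105225108 of 0.804. Just outside it, LOC105228685 had 0.799, LOC105226521 had 0.798 and 109579635 had 0.798. At the limit for 5-8 hpo the closest late-cleared genes were LOC105224801 and LOC105222399, both at 0.249, and LOC105228869 at 0.248. The closest genes beyond it were 109579487 at 0.251, LOC105233621 at 0.252 and LOC105230243 at 0.252. At the level limit, LOC105230067, LOC105230262 and LOC105230621 stood at FPKM 10.2, 10.2 and 11.3 at 0-1 hpo. LOC105229689, LOC105233932 and 105231686 had ratios within both limits but stood at FPKM 7.51, 7.38 and 5.32. Counting intervals were made for the ratio of reads scaled to library totals, without the added 1. They passed 0.8 for 21 of the 201 genes at 2-4 over 0-1 hpo, and 0.25 for 5 genes at 5-8 over 0-1 hpo. For genes of low FPKM this ratio at 5-8 over 0-1 hpo lies below that of FPKM + 1, so the count of 5 may be too low. Which genes fell inside the limits also depended on scaling: 168 of the 201 met them on the TPM scale and 157 after median-of-ratios scaling.

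Within the set the ratio at 2-4 over 0-1 hpo had a median of 0.972 (quartiles 0.877 and 1.15), and 86 genes had a higher value at 2-4 than at 0-1 hpo. Among all maternally present genes the share with a higher value was 36.6%. The rule removes the genes that fell early, so the members' share cannot be set against it. The ratio at 5-8 over 0-1 hpo had a median of 0.177 (quartiles 0.126 and 0.217). It was at most 0.1 in 27 genes, above 0.1 and up to 0.2 in 100, and above 0.2 in 74. A ratio of at most 0.1 was met by 3.94% of maternally present genes, a share printed here for scale only since the rule used that contrast. Between 5-8 and 2-4 hpo 182 of the 201 genes were at least 4-fold lower on FPKM + 1, against 7.76% of all maternally present genes, and this too follows from the rule.

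Ttc17 was the single late-cleared gene with an informative name. Its symbol stands for a protein with tetratricopeptide repeats, a fold that binds other proteins, and in human cells TTC17 is known for a part in actin assembly and the formation of cilia. Ttc17 had FPKM 75.2 (12889 reads) at 0-1 hpo, 78.0 (12770 reads) at 2-4 hpo and 8.05 (1514 reads) at 5-8 hpo. It was level over the first 2 ages and low at the third, 9.70-fold lower at 5-8 than at 2-4 hpo (9.19 to 10.2). The gene lies on scaffold NW_011876253.1, plus strand, 234122 to 237023 in the deposited coordinates (build not stated in the labels or files used here). Its last 367 bases overlap LOC105222748 on the opposite strand, which had FPKM 17.3, 17.3 and 8.84. The overlapping gene is thus above Ttc17 at 5-8 hpo, and the labels do not state whether counting used strand, so part of the remaining reads of Ttc17 may belong to it. This share was not tested.

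The 10 most abundant late-cleared genes at 0-1 hpo were all listed as protein-coding, and none has a name or product in the files or the reference table. LOC105222073, a single-exon gene on NW_011876224.1 (plus strand, 4890 to 6300), led at FPKM 1021, 902 and 146 at the 3 ages. LOC105234136 on NW_011876197.1 (plus strand, 467635 to 469278) had 905, 1178 and 108. LOC105228039 on NW_011876367.1 (minus strand, 37379 to 39190) had 837, 1035 and 159. The first of the 3 was slightly lower at 2-4 than at 0-1 hpo, while the other two were 1.30-fold (1.29 to 1.31) and 1.24-fold (1.23 to 1.25) higher. LOC105222974 had FPKM 750, 1076 and 170, and LOC105226222 had 742, 660 and 51.4. Both were far below their earlier values at 5-8 hpo, by 6.35-fold (6.23 to 6.46) and 12.8-fold (12.6 to 13.1) relative to 2-4 hpo. LOC105230676 had 627, 523 and 33.4, and LOC105229677 had 576, 601 and 28.7. These fell the most of the 10, to values 15.7-fold (14.9 to 16.5) and 21.0-fold (20.2 to 21.7) below 2-4 hpo. LOC105230057 had FPKM 439, 399 and 43.1, LOC105224582 had 410, 347 and 40.7, and LOC105224009 had 397, 400 and 86.0. The last of these had the smallest fall of the 10 between 2-4 and 5-8 hpo and was 4.65-fold (4.51 to 4.79) below its 2-4 hpo level.

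The steepest late falls were in genes of very different abundance. LOC105221982 on NW_011876219.1 (plus strand, 106429 to 108024) had FPKM 60.8, 51.8 and 0.732, with 6277, 5105 and 83 reads. It was nearly gone at the last age, 70.7-fold below 2-4 hpo (56.9 to 88.9). LOC105226986 on NW_011876350.1 (minus strand, 888379 to 974707) had FPKM 41.2, 34.3 and 0.912, a 37.6-fold difference between 2-4 and 5-8 hpo (32.8 to 43.2). LOC105227710 on NW_011876362.1 (minus strand, 178589 to 181220) had 356, 339 and 9.05, a 37.5-fold difference (35.7 to 39.4). It shares 28 bases with LOC105227711 on the opposite strand, which had FPKM 25.7, 5.20 and 8.57. LOC109579412 on NW_011876300.1, a single-exon gene of 626 bases, had FPKM 158, 141 and 4.61. The model 109579681 on NW_011876369.1, also single-exon, had 49.0, 42.3 and 1.40. All 5 genes were slightly lower at 2-4 than at 0-1 hpo before the late fall. The model 109579681 lies on the same strand within the borders of LOC105228363, which fell earlier, at FPKM 81.8, 24.4 and 4.65, and reads of the pair may be divided between them.

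Of the other 5 genes with the lowest ratios, LOC105229677 and LOC105230676 were described above among the abundant ones. LOC105232541 on NW_011876400.1 had FPKM 310, 270 and 13.4, LOC105226464 on NW_011876344.1 had 240, 209 and 13.2, and LOC105224466 on NW_011876306.1 had 48.9, 41.2 and 1.86. At 2-4 hpo they stood at 0.871, 0.871 and 0.842 of their 0-1 hpo FPKM.

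The 5 late-cleared genes with the highest ratio of 2-4 over 0-1 hpo stood clearly above their starting level before the fall. LOC105231688 on NW_011876396.1 (plus strand, 1974861 to 1976080) had FPKM 33.6, 68.7 and 3.24. It was 2.04-fold higher at 2-4 than at 0-1 hpo (1.95 to 2.14), the largest gain of the 201, and then 21.2-fold lower at 5-8 than at 2-4 hpo (18.8 to 24.0). LOC105230063 on NW_011876386.1 (plus strand, 1492186 to 1515143) had FPKM 94.6, 178 and 12.1, a gain of 1.88-fold (1.84 to 1.92). LOC105226701 on NW_011876347.1 had 154, 261 and 35.9. LOC105222386 on NW_011876236.1 had 34.0, 54.4 and 5.41, and LOC105231244 on NW_011876394.1 had 280, 425 and 53.4. The 5 genes gained between 1.52-fold and 2.04-fold, so their peak was in the 2-4 hpo library. Ratios above 1.25 on FPKM + 1 were found in 27 of the 201 genes. The share of all maternally present genes above 1.25 was not computed, so this count has nothing to be set against. For genes above FPKM 1 in all 3 libraries the median log2 ratio of 2-4 over 0-1 hpo was -0.23, so a gene with equal FPKM at both ages lay above that median.

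**Figure D3:**
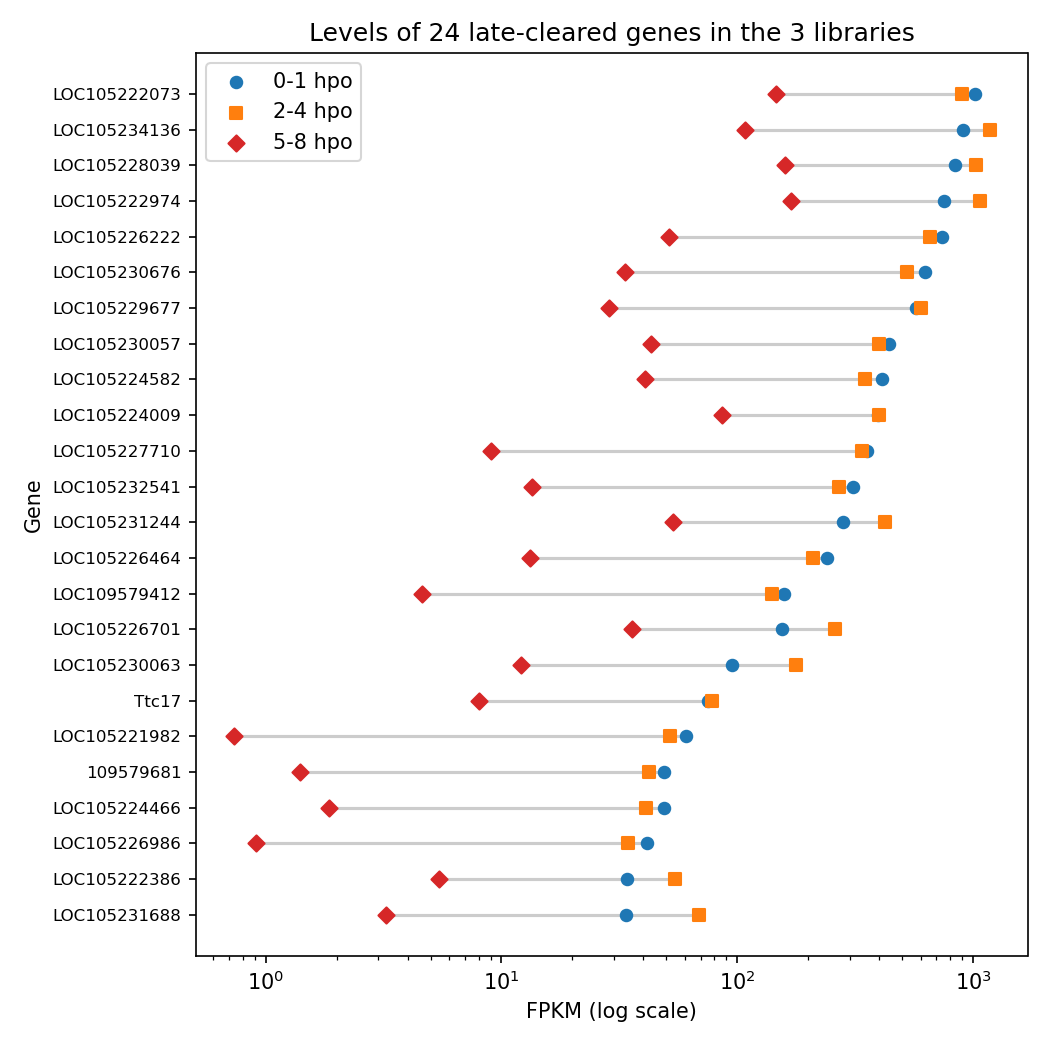
FPKM (horizontal axis, log scale) in the 3 libraries for 24 late-cleared genes (rows): the 10 most abundant at 0-1 hpo, the 10 with the lowest ratio of 5-8 over 0-1 hpo, the 5 with the highest ratio of 2-4 over 0-1 hpo, and Ttc17. The marks for 0-1 and 2-4 hpo lie close together in most rows, while that for 5-8 hpo lies far to the left, at FPKM 0.732 for LOC105221982.

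Abundance differed between the late-cleared and the other maternally present genes. At 0-1 hpo 71 of the 201 (35.3%, exact interval 28.7 to 42.4%) had an FPKM of 100 or more, against 984 of all 5635 (17.5%, 16.5 to 18.5%). The late-cleared share was 2.10% of genes at FPKM 10 to 20, 2.48% at 20 to 50, 3.85% at 50 to 100, 5.81% at 100 to 200 and 9.42% above 200. The whole group low at 5-8 hpo took 11.1% of genes in the first of these classes and 26.4% in the last. Among the genes already low at 2-4 hpo 34.1% had an FPKM of 100 or more, so the late-cleared share was close to theirs. FPKM at 0-1 hpo is also the denominator of both ratios. The ratios are of FPKM + 1, which makes the limit at 5-8 hpo stricter for genes of low FPKM. The rise of the share with abundance is therefore partly built in, and this is a description.

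The structure of the gene models was not used by the rule apart from the limit on span. Exonic length was alike: its median was 1916 bases in the late-cleared genes, 1860 in genes low from 2-4 hpo on, 1879 in genes kept at both later ages (a ratio of at least 0.8 at each, 1565 genes) and 1926 in all maternally present genes. The span from start to end, which includes introns, was 3121 bases in the median for late-cleared genes, against 4076, 2600 and 2798 in the same 3 groups. Upper quartiles of the span were 10322, 14150, 5605 and 6929 bases. The 359 genes low at 5-8 hpo and between the limits at 2-4 hpo had a median exonic length of 1912 bases and a median span of 4017. All 3 groups that ended low had longer spans in the median than the group that was kept, and the late-cleared genes had the shortest of the 3.

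Long models were more frequent in all 3 groups that ended low than in the kept group. At 10000 bases or more lay 25.4% of the late-cleared genes, 26.7% of the genes between the limits, 30.7% of those low from 2-4 hpo on and 14.5% of the kept genes. Models of 30000 bases or more numbered 27 of the 201 (13.4%, exact interval 9.04 to 18.9%), 35 of the 359 genes between the limits (9.75%, 6.89 to 13.3%), 16 of the 176 genes low from 2-4 hpo on (9.09%, 5.29 to 14.3%), 74 of the 1565 kept genes (4.73%, 3.73 to 5.90%) and 386 of all 5635 (6.85%). Read the other way, 6.99% of maternally present genes of 30000 bases or more were late-cleared (4.66 to 10.01%), against 3.32% of those under 1500 bases (2.44 to 4.40%). In between, the share was 3.27% from 1500 to 3000 bases, 3.26% to 10000 and 3.56% to 30000. The 1189 genes kept at 2-4 hpo with a smaller late fall lay between the kept group and the groups that ended low. Of them 20.9% spanned 10000 bases or more and 8.07% spanned 30000 or more. Differences in structure between these groups were not tested.

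**Figure D4:**
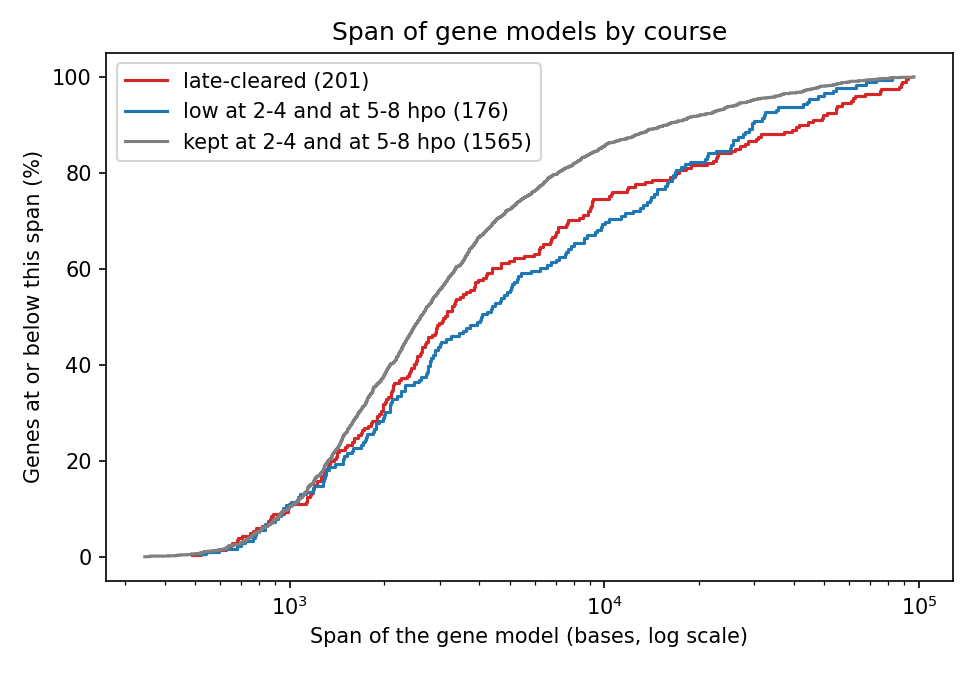
Cumulative share of gene models (vertical axis, percent) by span in bases (horizontal axis, log scale) for late-cleared genes (red), genes low at 2-4 and 5-8 hpo (blue) and genes kept at both ages (grey). The red and blue lines run to the right of the grey one above about the median, with medians of 3121, 4076 and 2600 bases.

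The 27 long genes were less abundant in the median than the rest of the set. Their median FPKM was 32.7, 33.0 and 5.41 at the 3 ages, against 74.3, 77.2 and 11.1 in the 174 shorter ones. The median ratio of 5-8 over 0-1 hpo was 0.195 in the long and 0.172 in the shorter genes, both within the limit of 0.25 that chose them. At or below 0.1 were 1 of the 27 long genes, LOC105226986, and 26 of the 174 shorter ones. The longest was LOC105228978 on NW_011876376.1 (minus strand, 2043772 to 2136022), which spans 92251 bases for 2139 exonic bases and had FPKM 29.1, 26.5 and 3.99. LOC105228688 spans 90762 bases and had 28.0, 25.8 and 3.69, and LOC105228488 spans 88552 bases and had 22.4, 19.6 and 2.85. The most abundant of the 27 was LOC105227489, spanning 31493 bases, at FPKM 325, 293 and 75.5.

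Models without introns (span equal to exonic length, called single-exon) were 20 of the 201 (9.95%, exact interval 6.18 to 14.9%). The share was 9.66% in genes low from 2-4 hpo on, 5.29% in the 359 genes between the limits, 6.96% in kept genes and 7.24% in all maternally present genes, so the interval of the late-cleared share holds each of these but that of the genes between the limits. In the 1189 genes kept at 2-4 hpo with a smaller late fall the share was 9.08%, close to that of the late-cleared genes. The 20 single-exon late-cleared genes had a median FPKM of 61.6, 62.8 and 8.77. These were near the values of the 181 genes with more than 1 exon (68.5, 66.3 and 10.2). On the plus strand lay 118 of the 201 (58.7%, 51.6 to 65.6%), against 48.8% of all maternally present genes and 52.3% of genes low from 2-4 hpo on. Scaffolds have no biological orientation, and the strand share is given as a value only.

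Of the 201, 186 were protein-coding in the RefSeq table (92.5%, against 96.1% of the maternally present genes), 2 were long noncoding RNA genes, 1 was of type misc_RNA and 12 identifiers were not matched. The long noncoding gene LOC109579750 (459 exonic bases, NW_011876376.1, plus strand, 125640 to 126162) was among the genes that gained, at FPKM 182, 270 and 29.9. LOC105231875, the other one, had 68.5, 60.7 and 7.52. The misc_RNA gene LOC105233971 had 20.1, 22.1 and 1.20. Of the 12 unmatched models, 105225107 was the most abundant at FPKM 212, 214 and 37.4, while 105222260 (21.2, 32.1 and 4.08) and 105232990 (87.4, 123 and 4.74) had the highest ratios of 2-4 over 0-1 hpo.

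Some late-cleared genes were neighbours. There were 6 runs of adjacent late-cleared models, holding 13 genes. The same count was not made for other groups of genes, so it does not show whether late-cleared genes cluster. In the divergent pair, LOC105223034 (minus strand) and LOC105223035 (plus strand) lie 228 bases apart on NW_011876261.1, 677340 to 684230. LOC105223034 had FPKM 40.5, 38.0 and 4.01, and LOC105223035 had 83.7, 76.5 and 10.7. Both genes of the pair were level over the first 2 ages and low at the third, a course that follows from the rule. On NW_011876320.1, 105225107 and LOC105225108 follow each other on the plus strand 799 bases apart, and the second had FPKM 278, 223 and 27.2. On NW_011876121.1, 105233198 (71.9, 70.5 and 13.9) lies upstream of LOC105233199 (101, 98.2 and 19.6) on the same strand, with a gap of 3730 bases. LOC105226894 (26.0, 30.6 and 2.94) and 105226896 (16.4, 16.0 and 1.93) follow on the plus strand of NW_011876349.1. Same-strand neighbours can be parts of 1 transcription unit that the annotation divides, which was not tested. Their shared course comes from the rule and does not bear on this. LOC109579750 and LOC105228869 (99.8, 108 and 24.0) were adjacent models on NW_011876376.1 but 31911 bases apart.

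The last run was part of a scaffold with more late-cleared genes than any other. The 201 genes lay on 121 of the 607 scaffolds that held a maternally present gene. NW_011876382.1 held 7 among its 26 maternally present genes (26.9%), whereas the median share over the 86 scaffolds with at least 20 such genes was 3.42% and the next highest was 12.9%. The scaffold was picked after its values were seen, so this is a description with no test. Among the maternally present genes of the scaffold, 4 in a row were late-cleared, between positions 1478963 and 1762051. These were LOC105229663 (FPKM 50.8, 57.4 and 10.6), LOC109579785 (28.7, 36.7 and 3.75), 109579786 (82.8, 84.5 and 7.28) and LOC105229664 (252, 264 and 16.7). The first 3 are single-exon models, and LOC109579785 and 109579786 lie 187 bases apart on opposite strands. Both overlap the span of LOC105229665, which stood at FPKM 0.141, 0.373 and 1.20 and overlaps LOC105229664 as well. Further along lay LOC105229677, LOC105229685 (183, 257 and 43.0) and LOC105229702 (338, 420 and 66.0).

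**Figure D5:**
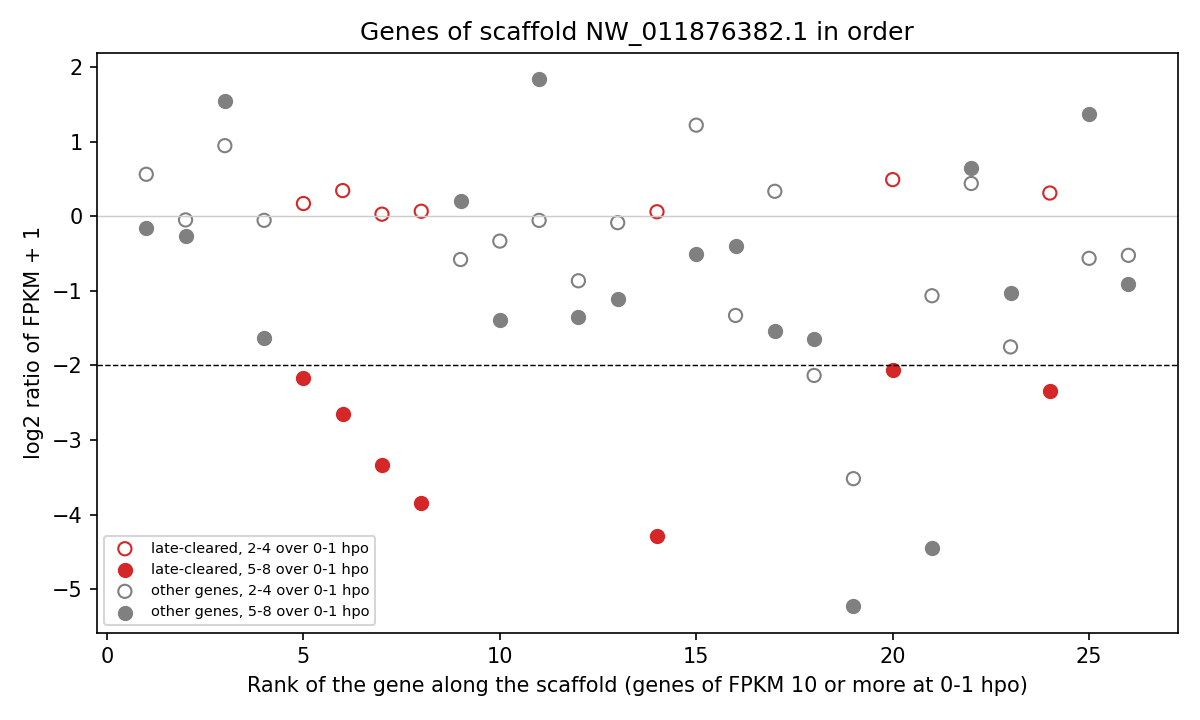
Log2 ratio of FPKM + 1 to the 0-1 hpo library (vertical axis) for the 26 maternally present genes of scaffold NW_011876382.1 in their order (horizontal axis), open marks for 2-4 hpo and filled marks for 5-8 hpo, with the 7 late-cleared genes in red. Genes 5 to 8 in the order are all late-cleared. Just before them, LOC105229661 had ratios of 0.963 and 0.324, a smaller late fall. Just after them, LOC105229666 had ratios of 0.669 and 1.15.

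Not every gene of that scaffold was lost late. LOC105229682 fell early, at FPKM 704, 60.6 and 17.8, and LOC105229658 gained, at 1008, 1944 and 2932. The model 105229676, the next maternally present gene after LOC105229677 on the same strand, had 876, 2043 and 614.

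Other gene models overlapped 49 of the 201 late-cleared genes (24.4%), against 27.3% of maternally present genes. For 21 of the 49, all overlapping models stayed under FPKM 1 at the 3 ages. For 13 of them an overlapping model was above the late-cleared gene at 5-8 hpo. The examples here were chosen after their values were seen. LOC105224395 on NW_011876304.1 (minus strand, 535950 to 596566) had FPKM 21.2, 26.2 and 4.23, and 6 models overlap its span. One of them, LOC105224394 on the other strand, had 89.0, 9.76 and 130, with its lowest value at 2-4 hpo. LOC105223848 had FPKM 249, 226 and 22.0, while LOC105223867, which overlaps it on the other strand, had 0.226, 0.539 and 45.9. Reads at such sites cannot be assigned with certainty without the strand setting. Without the 49 genes, 152 late-cleared genes remained and 8.55% of them were single-exon.

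Some named genes other than Ttc17 were kept at 2-4 hpo and had a smaller fall at 5-8 hpo. Of 76 genes with an informative name 45 were maternally present, and 22 of these were kept at 2-4 hpo. Among the 22, 6 had a ratio between 0.25 and 0.5 at 5-8 over 0-1 hpo, and they were chosen after their values were seen. GSTT1, a theta-class glutathione transferase that conjugates toxic compounds, had FPKM 21.5, 33.0 and 5.24, with a ratio of 0.278. Rab35, a small GTPase of endosome recycling, had 123, 104 and 38.1, and Irs1, an insulin receptor substrate, had 39.4, 45.2 and 12.1. Ngrn had 25.2, 30.8 and 8.89, NCPR, the reductase that supplies cytochrome P450 enzymes with electrons, had 261, 311 and 106, and Csga had 29.3, 42.9 and 14.2. These 6 had the same shape as the late-cleared genes with a smaller fall. The share of all 2955 genes kept at 2-4 hpo with a ratio between 0.25 and 0.5 was not computed. The count of 6 therefore has nothing to be set against. In the wider band, from 0.25 up to the limit for kept genes at 5-8 hpo, lay 8 of the 22 named genes. That band held 1189 of the 2955, so a fall within it was common among genes kept at 2-4 hpo.

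Of 7 gene lists drawn up for early fly development, 3 had at least 1 gene matched by its name. Lists of maternal RNA regulators, axis and germ plasm genes, the syncytial cell cycle and DNA replication had none, so nothing can be said of them. The detoxification list had 7 matched genes, 6 of them maternally present, and none of the 6 was late-cleared, against 3.57% of all maternally present genes. Of the 6, CYP6G6v2, a cytochrome P450 gene, and SODC, a copper-zinc superoxide dismutase gene, were already low at 2-4 hpo (ratios of 0.205 and 0.166 to 0-1 hpo). GST, an enzyme of glutathione conjugation, was at 0.668 of its 0-1 hpo value at 2-4 hpo and at 0.0971 at 5-8 hpo. Zn-CuSOD had ratios of 0.308 and 0.284. GSTT1 and NCPR, the rest of the 6, went the other way at 2-4 hpo, with ratios of 1.51 and 1.19. At 5-8 hpo they stood at 0.278 and 0.408 of the 0-1 hpo value. EST3A, the remaining matched gene, was under FPKM 1 at all ages. The yolk gene VIT1 (FPKM 1.58, 3.02 and 1.13) and the opsin gene Rh1 (0 reads in all 3 libraries) were the matched genes of the lists for eggshell and yolk and for late and adult tissue.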

How the data were processed

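RNA-seq of whole embryos at 3 ages, 1 library each, was analysed. The deposited files hold FPKM values (the unit is in the file name) and raw read counts per gene with position and exonic length. Per the submitters' processing notes HISAT2 2.0.4 and HTSeq 0.9.1 were used; settings, strand, build and annotation are not stated there. For 63 of the 201 genes (31.3%) the length implied by FPKM and counts differed by over 0.1% from the listed one, at 0.605 to 1.00 times it, so their levels depend on the length used. Ratios of FPKM + 1 depend on it slightly, by at most 0.013 on the log2 scale for the 37 genes named by rule.

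From these, ratios of FPKM + 1 and the set were computed with Python 3.11.15, pandas 2.3.3 and numpy 2.4.6. Folds are ratios of FPKM with exact conditional binomial intervals, and shares have exact Clopper-Pearson intervals (scipy 1.17.1), at 95%. A count of 0 allows up to 3 reads, or 0.0440, 0.0461 and 0.0401 RPM at the 3 ages. Names and types came from a RefSeq table of assembly ASM2337382v1 (11887 of 13489 identifiers matched), whose coordinates were not used. The procedure was tested on simulated counts. The genes, lists and rules were chosen with earlier results of these data known. Genes named are those with a name, the 10 most abundant, the 10 lowest ratios at 5-8 hpo and the 5 highest at 2-4 hpo. Those nearest the limits and those in runs are named too. Others in the structure, type, scaffold and overlap paragraphs, and the 6 named genes with a smaller fall, were added after their values were seen. No sequences were used here, so protein patterns, related proteins and promoter motifs were not analysed.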

Additional observations from a re-analysis of the deposited data

How the results depend on the processing

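The number of late-cleared genes, 201, stayed within 1.5 times under 11 of the 14 alternatives and followed the limits chosen under the other 3. It was 86 with a ratio of at least 1 at 2-4 hpo, 127 with a ratio of at most 0.2 at 5-8 hpo and 352 with at most 0.33, by the construction of these limits. Membership depended on scaling more than the number did: the TPM scale gave 233 genes, 168 of them among the 201, and median-of-ratios scaling gave 212, 157 of them among the 201. A pseudocount of 0.1 gave 233, with 199 shared. The share of single-exon genes ranged from 8.55 to 11.8% over the 14 alternatives, within its interval. Leaving out genes that overlap another model was added after seeing the data. Of the 37 genes named by rule, 3 passed the 5-8 hpo limit (log2 ratio of -2) under median-of-ratios scaling: LOC105222974 at -1.97, LOC105226701 at -1.91 and LOC105228869 at -1.84. None of the 37 passed it under the other 4 settings run for single genes. The count of zinc finger proteins was not run. No paired analysis was possible because there was a single library at each age. The fewest reads of any of the 201 genes were 25, so depth limits only the lowest values.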
